A study of Mus musculus with 8 samples.

Results

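The genes described are components of bone morphogenetic protein (BMP) signalling and the Id genes that answer to it, followed in primary mouse peritoneal mesothelial cells (MCs) with and without mechanical stretch and with and without caveolin-1. The members were given as a list of 10 symbols, Bmp2, Bmp4, Bmp6, Bmpr1a, Bmpr2, Grem1, Smad6, Id1, Id2 and Id3, and were found by symbol in a table of 13687 genes. Of these, 9 were found and all 9 passed the filter on low values, while Bmp2 was not analysed here. Bmp4 was put on the list because it fell on stretch in all 4 animals, so its response to stretch is given as a description without a test.

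The RNA came from MCs of WT mice and of littermates labelled Cav-1- (strain B6.Cg-CAV1tm1mls/J, a whole-animal deletion of caveolin-1, written CAV1-/- here). MCs of 2 mice of each genotype were grown to confluence, and each mouse gave 1 culture left static and 1 culture stretched for 24 h, which makes 8 poly A RNA libraries in 4 groups of 2 cultures. Age was not given in the sources used here, mice of both sexes had been used for ex vivo work, and the stretching regime of the mouse cultures was not stated. Mice are named here by genotype and replicate number, and a WT and a CAV1-/- mouse of the same number are different animals.

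Values are counts per 1000000 reads of the library after TMM normalisation (TMM-normalised CPM), a scaling that makes libraries of different composition comparable. Libraries held 9777738 to 21203938 reads, and every stretched library (at least 15861571) was deeper than every static one (at most 14237503), so depth and stretch cannot be told apart by group. Cav1 was 764 and 275 TMM-normalised CPM in static WT MCs, 569.9 and 247 in stretched WT MCs, 34.5 and 18.9 in static CAV1-/- MCs and 20.0 and 12.8 in stretched CAV1-/- MCs, in the direction of the labels in every library. Mesothelial markers (12 of 12 measured) had counts in all libraries, though Muc16 was below 3 reads in static CAV1-/- mouse 1 (0.165). Their summed level was 2963 to 3903 in WT and 854 to 1116 in CAV1-/- cultures. Wt1 (94.9 to 133 in WT, 74.9 to 138 in CAV1-/-) and Krt19 (21.7 to 65.9 and 2.67 to 69.4) overlapped between genotypes. Each other mesothelial marker was lower in every CAV1-/- library than in every WT library. Both cultures of CAV1-/- mouse 1 stood apart, with a summed level of 12 leukocyte markers of 4842 (static) and 4841 (stretched) against 79.9 to 470 in the other 6 libraries, and 11 of the 12 markers highest in those cultures. Fibroblast markers (7 of 8 measured) summed to 7151 to 17063, most of it Col1a1, while Dpt and Col14a1 were below 3 reads in both cultures of CAV1-/- mouse 1. Endothelial markers (5 of 8 measured) summed to 45.4 to 115, most of it Kdr and Esam, and Emcn was at 0 in both cultures of CAV1-/- mouse 2. The study counts KDR among the markers that MCs share with endothelial cells. In such bulk RNA, fewer cells of a type and less RNA per cell cannot be told apart, and the part of these markers in the results below was not tested.

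BMPs are secreted ligands of the TGF-β superfamily that bind paired type I and type II receptor kinases and lead to phosphorylation of SMAD1, SMAD5 and SMAD9, which enter the nucleus with SMAD4. The Id genes, which encode inhibitors of basic helix-loop-helix transcription factors, are classical direct targets of this branch, and Smad6 is a target that encodes an inhibitor of it. In mesothelial cells BMP signalling is known mainly as a counterweight to TGF-β1-driven mesothelial-to-mesenchymal transition.

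The promoters of Bmp4, Smad6 and Grem1 are shown because, among the members, only their RefSeq starts lay within 2 bases of the GENCODE start. Of these genes, the ligand Bmp4 and the inhibitory Smad6 were lower on stretch in every mouse, while the BMP antagonist Grem1 was higher in every mouse. Each run holds the 250 bases upstream of the RefSeq start on GRCm38.p6, written 5′ to 3′ on the gene's own strand, with capitals for GGCGCC, a palindromic motif bound by BMP SMADs, or CAGAC and its reverse complement GTCTG, the SMAD-binding element; the motifs do not overlap each other.
Bmp4 (chr14:46390670-46390919, minus strand): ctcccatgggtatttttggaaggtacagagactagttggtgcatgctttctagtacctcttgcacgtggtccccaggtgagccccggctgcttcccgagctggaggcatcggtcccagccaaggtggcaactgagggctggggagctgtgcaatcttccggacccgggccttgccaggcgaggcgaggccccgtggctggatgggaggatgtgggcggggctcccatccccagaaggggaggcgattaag
Smad6 (chr9:64022060-64022309, minus strand): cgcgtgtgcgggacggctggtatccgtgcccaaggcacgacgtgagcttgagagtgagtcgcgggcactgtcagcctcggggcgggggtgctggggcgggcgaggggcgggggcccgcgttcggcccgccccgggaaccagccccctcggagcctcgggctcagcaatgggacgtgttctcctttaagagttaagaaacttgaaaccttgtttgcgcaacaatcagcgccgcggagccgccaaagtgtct
Grem1 (chr2:113758649-113758898, minus strand): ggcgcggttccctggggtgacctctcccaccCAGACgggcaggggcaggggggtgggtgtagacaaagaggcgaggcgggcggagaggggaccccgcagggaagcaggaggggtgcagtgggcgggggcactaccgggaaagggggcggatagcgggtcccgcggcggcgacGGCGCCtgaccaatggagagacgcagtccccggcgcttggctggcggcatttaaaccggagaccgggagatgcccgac
The Bmp4 and Smad6 windows held neither motif, and the Grem1 window held GGCGCC once, 78 bases upstream of the start, and CAGAC once, 219 bases upstream. Of all 32851 RefSeq promoters of this length, 9.59% held GGCGCC and 42.2% held CAGAC on either strand. Among the 8 members with a RefSeq window, GGCGCC was found in 4 (Bmpr1a, Bmpr2, Grem1 and Id2) and CAGAC in 3 (Bmp6, Grem1 and Id3). The windows of the 8 members were 62.8% to 78.8% G and C, against a median of 52.4% over all promoters. GGCGCC holds only G and C, so its count is not read as an excess. Of the members with a motif, all but Grem1 had a RefSeq start 325 to 1048 bases inside the GENCODE gene. The letters describe these windows only and say nothing of binding in MCs.

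Divided by exon length, Id3, Id1 and the antagonist Grem1 were the highest members and the ligands the lowest. The mean over the 8 libraries, in TMM-normalised CPM per 1000 exon bases, was 94.9 for Id3 (library range 55.3 to 142), 65.4 for Id1 (36.0 to 107) and 55.5 for Grem1 (30.2 to 92.5). The type I receptor gene Bmpr1a followed with 24.7 (17.4 to 30.3), then Id2 with 17.0 (7.63 to 33.9), Smad6 with 10.9 (6.75 to 19.3) and the type II receptor gene Bmpr2 with 8.29 (6.92 to 11.6). The lowest were Bmp4 with 7.24 (1.34 to 17.9) and Bmp6 with 2.33 (0.716 to 5.61). The ranges of neighbours over all libraries overlapped in every case. Compared within each library, Id3 was above Id1, Grem1 above Bmpr1a and Bmp4 above Bmp6 in 8 of 8 libraries. The order of the other neighbours did not hold in every library: Id1 was above Grem1 in 4 of 8, Bmpr1a above Id2 and Id2 above Smad6 in 6 each, and Smad6 above Bmpr2 and Bmpr2 above Bmp4 in 5 each.

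**Figure D1:**
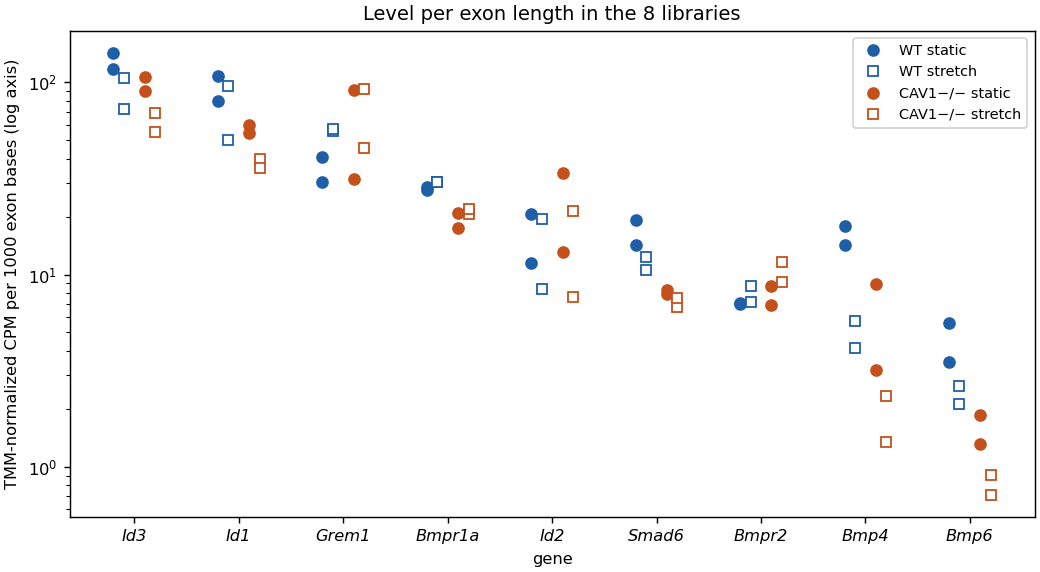
Level of each member per 1000 exon bases in the 8 libraries (TMM-normalised CPM per 1000 bases, log axis), 1 point per library. Id3 and Id1 lie highest, with means of 94.9 and 65.4, and Bmp6 lowest, with a mean of 2.33.

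The first question was how 24 h of stretch changed these genes. The ligands, the Id genes and Smad6 were lower in the stretched culture of all 4 mice, and the receptors and the antagonist were higher in all 4. Thus 6 members were lower in every mouse (Bmp4 by the rule, with Bmp6, Smad6, Id1, Id2 and Id3), against a background of 16.9% of the 13665 genes tested, and 3 were higher in every mouse (Bmpr1a, Bmpr2 and Grem1), against 14.5%. Within WT MCs, 4 members were lower without overlap of the cultures (background 17.2%) and 3 higher (13.9%), and within CAV1-/- MCs 5 were lower (11.9%) and 1 higher (12.4%). The list was drawn up with stretch results of these libraries known, and nothing is read from these counts. The median log2 fold change of the 8 members other than Bmp4, over the mean of the 4 mice, was -0.42, beside -0.01 for all genes tested.

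Markers of cell type also moved on stretch. The summed level of the mesothelial markers was lower in the stretched culture of each mouse, at 2963 against 3903 in WT mouse 1, 3573 against 3744 in WT mouse 2, 1045 against 1116 in CAV1-/- mouse 1 and 854 against 1020 in CAV1-/- mouse 2. Of the 12 mesothelial markers, 5 were lower in all 4 mice (Msln, Upk3b, Lrrn4, Krt7 and Gpm6a) and 1 was higher (Pdpn). Of the 7 fibroblast markers measured, 3 were lower in all 4 mice (Pdgfra, Dcn and Col14a1), while the summed level of the 7 was lower in 3 mice and higher in CAV1-/- mouse 1 (7906 against 7151). That sum was mostly Col1a1, which in CAV1-/- mouse 1 was 7782 stretched against 6884 static, while each other fibroblast marker measured was lower there. Of the 12 leukocyte markers, 0 were lower in all 4 mice and 1 was higher (Lyz2), and of the 5 endothelial markers 1 was lower (Tek). Col14a1 was at or below the value of 3 reads in WT mouse 1 (0.210 static, 0.0986 stretched) and CAV1-/- mouse 1 (0.165 and 0.0485). Tek was also low, at 0.197 to 3.23 over the libraries. The part of the cell type markers in the members' changes on stretch was not tested.

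**Figure D2:**
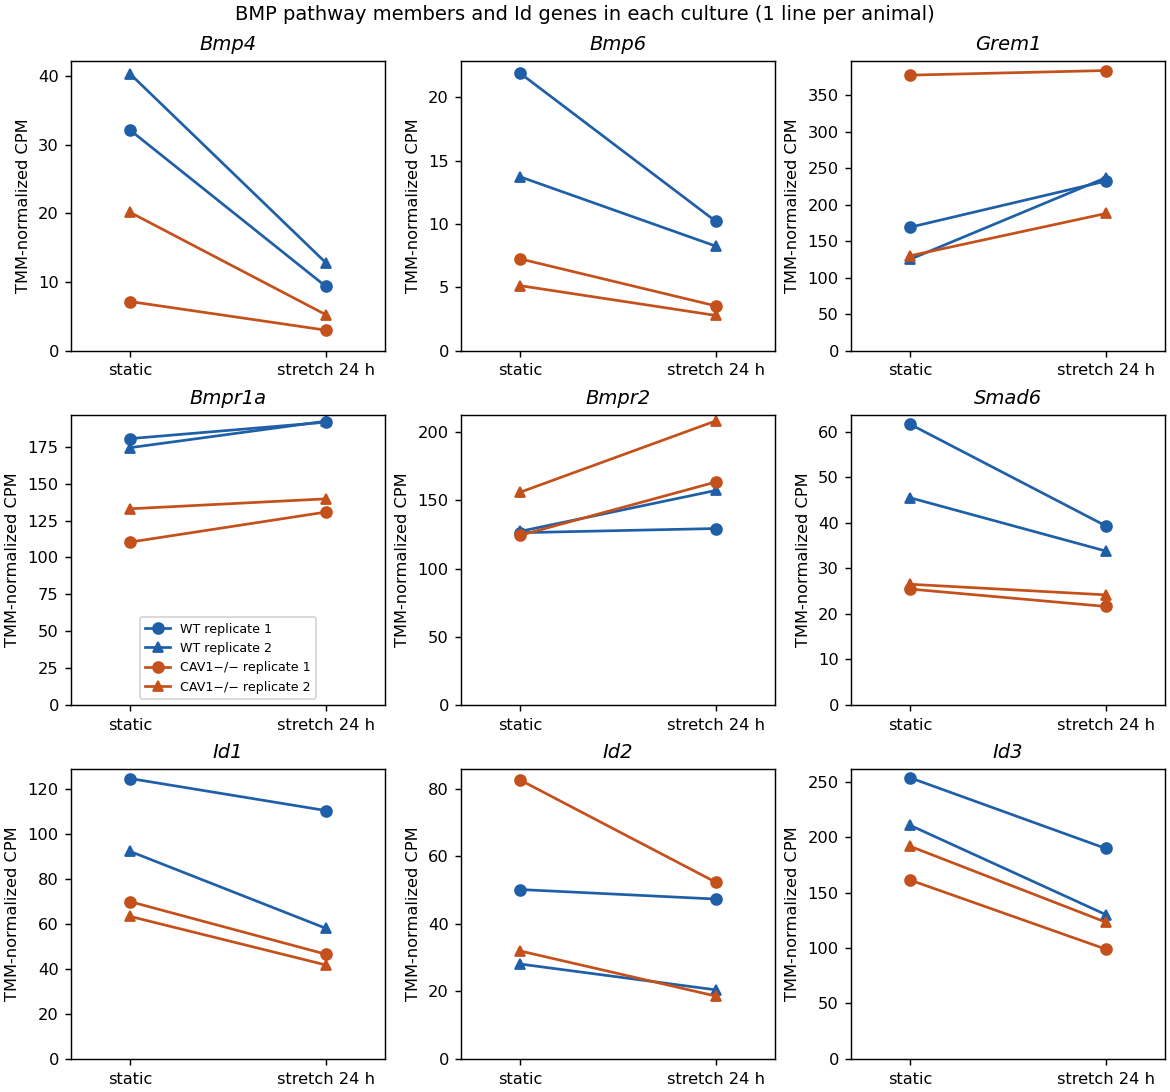
TMM-normalised CPM of each member in every library, with lines joining the static and the stretched culture of the same mouse. Bmp4, Bmp6, Smad6, Id1, Id2 and Id3 slope down in all 4 mice, and Bmpr1a, Bmpr2 and Grem1 slope up in all 4.

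Bmp4 (ENSMUSG00000021835, chr14:46383520-46390669 on GRCm38, minus strand), the ligand with the larger response, was 32.1 and 40.3 TMM-normalised CPM in static WT MCs and 9.37 and 12.8 after stretch. In CAV1-/- MCs it was 7.17 and 20.1 in static culture and 3.01 and 5.25 after stretch. The stretched and static cultures did not overlap within either genotype, but static CAV1-/- mouse 1 (7.17) lay below both stretched WT cultures. The stretched level was 0.292 and 0.318 times the static level in WT mice 1 and 2, and 0.420 and 0.261 times in CAV1-/- mice 1 and 2. The mean change was -1.51 ± 0.33 on the log2(value + 1) scale (SD, n = 4 mice), the largest among the members. These values rest on 62 to 499 reads per library. An exon of Gm15217, which was not analysed here, overlaps Bmp4 by 89 bases on the other strand, and the counting was not stated to use strand.

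Bmp6 (ENSMUSG00000039004, chr13:38345107-38500302, plus strand), a ligand also known for its part in iron regulation through hepcidin, was 21.9 and 13.7 in static WT MCs and 10.2 and 8.25 after stretch, all in TMM-normalised CPM. In CAV1-/- MCs it was 7.25 and 5.14 in static culture and 3.54 and 2.79 after stretch. Stretched cultures were below static ones without overlap in both genotypes. The stretched level was between 0.466 and 0.601 times the static level in the 4 mice, and the mean change was -0.81 ± 0.17 (SD, n = 4 mice). In the limma fit of group means the adjusted p was 0.984 (SE 0.20, unadjusted p = 0.00683), and with the animal as a block it was 0.0386, with a range over all alternatives from 0.0386 to 1.00. Txndc5 overlaps its exons by 224 bases on the other strand, and was level across the libraries (466 to 548 TMM-normalised CPM).

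Among the Id genes, Id3 (ENSMUSG00000007872, chr4:136143497-136145755, plus strand) had the most even fall. It was 254 and 211 TMM-normalised CPM in static WT MCs and 189.7 and 130.1 after stretch, and 161 and 192 in static CAV1-/- MCs and 99.0 and 123 after stretch. The stretched level was 0.748, 0.618, 0.614 and 0.643 times the static level in WT mice 1 and 2 and CAV1-/- mice 1 and 2, without overlap of groups in either genotype. The mean change was -0.61 ± 0.13 (SD, n = 4 mice), with an adjusted p of 0.984 by limma on group means (SE 0.16, unadjusted p = 0.00853) and 0.0291 with the animal as a block (range over all alternatives 0.0291 to 1.00).

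Id1 (ENSMUSG00000042745, chr2:152736251-152737410, plus strand), often used as the readout of BMP activity, was 125 and 92.2 TMM-normalised CPM in static WT MCs and 110.4 and 58.0 after stretch, so the WT groups overlapped. In CAV1-/- MCs it was 69.9 and 63.3 in static culture and 46.5 and 41.8 after stretch, without overlap. The mean change was -0.50 ± 0.22 (SD, n = 4 mice), with a limma adjusted p of 0.984 and 0.0598 with the animal as a block.

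Id2 (ENSMUSG00000020644, chr12:25093799-25097140, minus strand) differed more between mice than between conditions. It was 50.2 and 28.1 TMM-normalised CPM in static and 47.3 and 20.5 in stretched WT MCs, and 82.6 and 32.0 in static and 52.3 and 18.6 in stretched CAV1-/- MCs. Each mouse 1 was above each mouse 2, and static and stretched groups overlapped in both genotypes. The mean change was -0.48 ± 0.30 (SD, n = 4 mice), with a limma adjusted p of 0.997 and 0.0593 with the animal as a block.

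Smad6 (ENSMUSG00000036867, chr9:63953076-64022059, minus strand), which encodes an inhibitory SMAD, was 61.7 and 45.5 TMM-normalised CPM in static WT MCs and 39.3 and 33.8 after stretch. In CAV1-/- MCs, where it started lower, it was 25.5 and 26.5 in static culture and 21.6 and 24.2 after stretch. The groups did not overlap in either genotype, and the stretched level was 0.638 and 0.743 times the static level in WT mice against 0.850 and 0.912 times in CAV1-/- mice. The mean change was -0.35 ± 0.22 (SD, n = 4 mice), with a limma adjusted p of 0.984 (unadjusted p = 0.0313) and 0.0815 with the animal as a block.

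Grem1 (ENSMUSG00000074934, chr2:113746164-113758646, minus strand) encodes gremlin, a secreted protein that binds BMP ligands and keeps them from their receptors. It was 169 and 125 TMM-normalised CPM in static WT MCs and 232 and 237 after stretch, without overlap. In CAV1-/- mouse 1 it was 377 in static and 384 in stretched culture, and in CAV1-/- mouse 2 130.04 and 188. The rise thus ranged from 1.02 times in CAV1-/- mouse 1 to 1.89 times in WT mouse 2. The mean change was 0.48 ± 0.36 (SD, n = 4 mice), with a limma adjusted p of 0.991 and 0.0886 with the animal as a block.

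In the mean of the 4 mice the receptor genes moved least. Within CAV1-/- MCs alone, Bmpr2 changed by 0.40, more than Smad6 (-0.18) and Grem1 (0.28). Bmpr2 (ENSMUSG00000067336, chr1:59763400-59879014, plus strand) was 126 and 127 TMM-normalised CPM in static and 129 and 157 in stretched WT MCs, and 124 and 156 in static and 163 and 208 in stretched CAV1-/- MCs, a mean change of 0.29 ± 0.17 (SD, n = 4 mice). Bmpr1a (ENSMUSG00000021796, chr14:34410734-34503341, minus strand) was 181 and 174 in static and both times 192 in stretched WT MCs, and 110 and 133 in static and 131 and 140 in stretched CAV1-/- MCs, a mean change of 0.13 ± 0.08. Neither passed the limma threshold with the animal as a block (adjusted p = 0.0911 for Bmpr2 and 0.260 for Bmpr1a). Gm17110, not analysed here, overlaps Bmpr1a by 290 exon bases on the other strand.

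**Figure D3:**
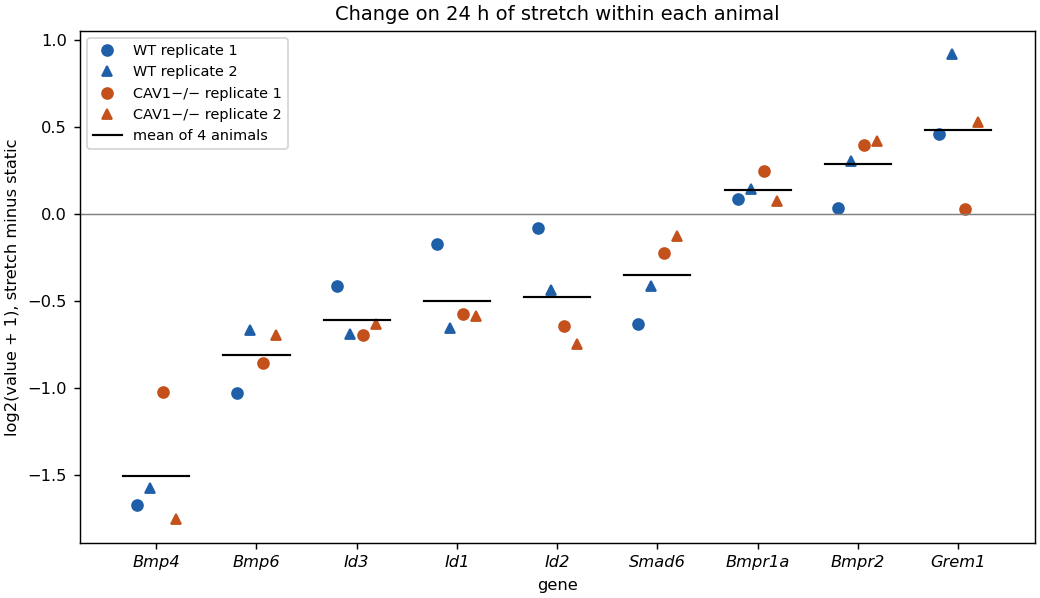
Log2 fold change of stretched over static culture on the log2(value + 1) scale for each member, 1 point per mouse. The Bmp4 points lie between -1.76 and -1.03, the Bmp6 and Id3 points lie close together below 0, and the Bmpr1a points lie between 0.07 and 0.24.

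Across the table, limma on group means called 0 of the 13665 genes for the mean stretch effect at an adjusted p under 0.05 (0%), with 647 genes at an unadjusted p of at most 0.05 (4.73%), and edgeR's quasi-likelihood test called 0 and DESeq2 36. With the animal as a block the count was 201 genes (1.47%), of which 117 were lower (0.856%), and of the 8 members other than Bmp4, which is described without a test, Bmp6 and Id3 were among them. At an unadjusted p of at most 0.05 without the block, 3 of the 8 members other than Bmp4 were lower (Bmp6, Id3 and Smad6), against a background of 2.55%. Within WT MCs the same 3 passed that threshold (background 1.45%), and within CAV1-/- MCs Bmp6 and Id3 did (background 1.02%), with limma adjusted p-values of 1.00 throughout. The members were listed with stretch results of these libraries known, so nothing is read from these counts of members. A permutation test of 2 against 2 cultures cannot go below p = 0.333, and a sign-flip test over 4 mice cannot go below 0.125, so no such test of a single gene could pass 0.05.

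The second question was how the loss of caveolin-1 changed the same genes, which the choice of Bmp4 did not use. The list was still chosen with earlier results of these data known, so the counts of members by genotype are descriptions only. Bmp4, Bmp6, Bmpr1a, Smad6, Id1 and Id3 were lower in both CAV1-/- cultures than in both WT cultures, without stretch and with it, while Grem1 and Id2 overlapped in both conditions. These 6 members compare with a background of 20.8% of genes lower without overlap in static culture and 15.9% on stretch. Bmp6, Bmpr1a and Smad6 were also lower in all 4 CAV1-/- libraries than in all 4 WT libraries, whatever the condition (background 5.88%).

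In static culture, 4 of the 9 members were lower at an unadjusted p of at most 0.05 (Bmp4, Bmp6, Bmpr1a and Smad6) and 0 were higher, against a background of 5.42% of genes lower. None passed the adjusted threshold in limma, at which 10 genes of the table were called (0.0732%). Smad6 had the smallest p, with a log2 fold change of -1.001 (SE 0.18, unadjusted p = 0.00130, limma adjusted p = 0.133). The change was -1.37 for Bmp6 (SE 0.29, limma adjusted p = 0.208) and -0.55 for Bmpr1a (SE 0.12, limma adjusted p = 0.230). The largest difference was that of Bmp4, -1.49, with the widest error of these 4 (SE 0.48, limma adjusted p = 0.458). The Bmp4 difference rested partly on CAV1-/- mouse 1, the animal with the high leukocyte markers: without both of its cultures it was -0.81, while Bmp6 was then at -1.58, Smad6 at -0.97 and Bmpr1a at -0.41. Id1 had a difference of -0.68 (SE 0.31) and Id3 one of -0.39 (SE 0.23), with limma adjusted p-values of 0.673 and 0.775.

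In stretched culture, 5 of the 9 members were lower at an unadjusted p of at most 0.05 (Bmp4, Bmp6, Bmpr1a, Smad6 and Id1), against a background of 3.82%. Limma called 8 genes of the table (0.0585%) and no member. The log2 fold changes were -1.30 for Bmp6 (SE 0.29, limma adjusted p = 0.335), -0.50 for Bmpr1a (SE 0.12, limma adjusted p = 0.387) and -0.65 for Smad6 (SE 0.18, limma adjusted p = 0.467). For Id1 the change was -0.85 (SE 0.31) and for Bmp4 -1.26 (SE 0.48), with limma adjusted p-values of 0.710 and 0.734. The static and the stretched comparison share their 4 mice and are not independent of each other.

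Bmpr2, Grem1 and Id2 were not lower in the group means of CAV1-/- MCs. Bmpr2 had a difference of 0.13 in static culture (SE 0.18) and 0.37 on stretch (SE 0.18, limma adjusted p = 0.884), where both CAV1-/- cultures lay above both WT cultures (background 14.6% of genes). Grem1 had a difference of 0.60 in static culture (SE 0.55) and 0.19 on stretch (SE 0.55), which turned to -0.16 and -0.32 without CAV1-/- mouse 1. Id2 likewise turned from 0.44 to -0.23 in static culture and from 0.01 to -0.72 on stretch without that mouse, so neither gene had a direction that held over the animals.

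**Figure D4:**
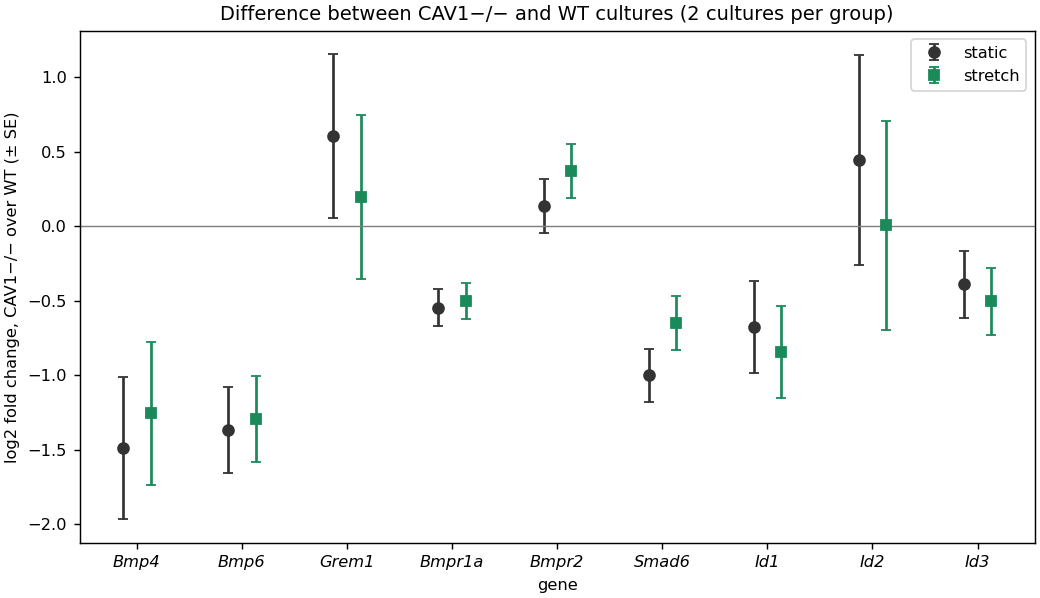
Log2 fold change of CAV1-/- over WT MCs on the log2(value + 1) scale, in static and in stretched culture, with bars of ± 1 SE from the limma fit (2 cultures per group). Bmp4, Bmp6, Bmpr1a, Smad6, Id1 and Id3 lie below 0 by more than 1 SE in both conditions, and the bars of Grem1 and Id2 are the widest.

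The third question was whether the response to stretch differed between genotypes. Bmp4 is again described without a test, since this comparison uses the stretch changes by which it was chosen. None of the other members passed (limma adjusted p = 1.00 for each). The table held 0 called genes (0%), with 66 at an unadjusted p of at most 0.05 (0.483%) and 0 by edgeR and by DESeq2. The largest interaction terms were -0.44 for Id2, -0.41 for Grem1 and 0.35 for Smad6 (SE 0.25), the last in the direction of a smaller fall in CAV1-/- MCs. For Bmp4 the term was 0.23 and for Bmp6 0.07. With 2 mice per genotype these values do not show that the responses were alike.

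Beyond the members, 69 further genes of the pathway were listed by role, and 49 were in the table. No gene of this list passed an adjusted p under 0.05 in limma on group means in any of the 6 comparisons. At an unadjusted p of at most 0.05, 4 were higher and 5 lower in static CAV1-/- against WT MCs (background 2.76% and 5.42%), and 3 were higher and 5 lower on stretch (background 2.44% and 3.82%). For the mean stretch effect, 4 were higher and 1 lower (background 2.19% and 2.55%). The list's median log2 fold change was -0.05 in static and 0.11 in stretched CAV1-/- against WT MCs, and 0.03 for the mean stretch effect, beside -0.01, 0.00 and -0.01 for all genes.

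With the animal as a block, 7 of the 49 genes were called for the mean stretch effect (limma adjusted p from 0.0291 to 0.0456), against 1.47% of all genes in the same fit. Among those that rose were Tll1 (0.74), which encodes a protease that cleaves the BMP antagonist chordin, Fstl3 (0.85), which encodes a follistatin-like binder of activins and some BMPs, and the intracellular brakes Smurf2 and Skil (0.46 each). Those that fell were Atoh8 (-0.68), a BMP target gene, and Htra1 (-0.38), which encodes a secreted protease. Without the block their adjusted p-values were 0.984 to 0.999. The pathway list was chosen with earlier results of these data known, and nothing is read from its counts.

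Id4, the remaining Id gene, was on the pathway list and had the course of Id1 and Id3. It was 12.4 and 13.4 TMM-normalised CPM in static and 4.59 and 10.3 in stretched WT MCs, and 4.78 and 4.93 in static and 2.28 and 2.57 in stretched CAV1-/- MCs. It was lower on stretch in all 4 mice and lower in CAV1-/- than in WT MCs without overlap in either condition, by -1.25 in static culture (SE 0.34, limma adjusted p = 0.338) and -1.21 on stretch (limma adjusted p = 0.475). Bmp1, a procollagen and chordin protease, went the other way, with 261 and 269 in static and 468 and 312 in stretched WT MCs, and 406 and 401 in static and 669 and 529 in stretched CAV1-/- MCs. Its differences were 0.53 on stretch in WT MCs, 0.56 on stretch in CAV1-/- MCs and 0.64 between genotypes on stretch, with limma adjusted p-values of 0.656 to 1.00.

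Among other extracellular modulators, Fst, which encodes follistatin, was 17.3 and 27.5 in static WT and 60.2 and 46.7 in static CAV1-/- MCs, a difference of 1.24 (SE 0.30, limma adjusted p = 0.262). Chrd, which encodes chordin, was lower without overlap in CAV1-/- MCs in both conditions (-0.86 and -0.77). Gdf6, one of the 2 further ligands in the table, was lower in CAV1-/- MCs on stretch, at 37.9 and 28.6 against 105 and 61.4 (-1.26, limma adjusted p = 0.348). The BMP target Msx2 was higher without overlap in both conditions (1.02 and 0.87), but at a level of 0.404 to 2.47 TMM-normalised CPM.

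Other pathway genes whose groups did not overlap included Kcp, with a difference of -0.94 in static CAV1-/- against WT MCs, and Tll1, with one of 1.06 between stretched genotypes. On stretch within WT MCs the differences were 0.87 for Fstl3, 0.41 for Skil, -0.81 for Id4, -0.73 for Msx1 and -0.67 for Atoh8. Within CAV1-/- MCs they were 1.02 for Tll1, -0.77 for Id4, -0.65 for Fst and -0.52 for Gdf6. Changes on stretch ran apart between the mice of the genotypes, without overlap, for Nog (0.70), Tll1 (0.57), Msx1 (0.55), Gdf6 (-0.65), Bmper (-0.51) and Sp7 (-0.33), values that are differences of changes. None of these passed an adjusted p under 0.05 in limma. Those of the last comparison were only the 3 largest each way among the pathway genes without overlap. For that comparison the share of all genes without overlap was not counted, so nothing is read from the separation. Sp7 had 0 reads in both cultures of CAV1-/- mouse 1, and 1 (static) and 4 (stretched) in WT mouse 1. Kcp (0.243 to 4.20 TMM-normalised CPM over the libraries), Nog (0.739 to 2.47) and Msx1 (1.70 to 5.35) were also low.

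**Figure D5:**
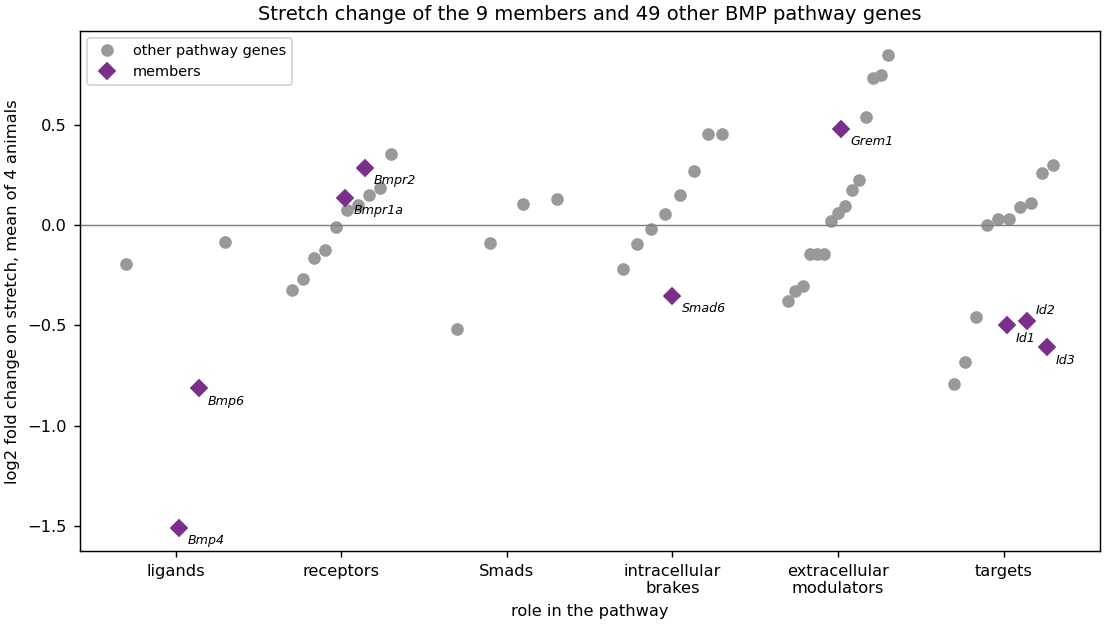
Log2 fold change on stretch (log2(value + 1) scale, mean of the 4 mice) of the 9 members (diamonds) and the 49 further pathway genes (circles), grouped by role and ordered by value within a role. Bmp4 lies lowest at -1.51, the circles have a median of 0.03, and Fstl3 is the highest of them at 0.85.

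The genes whose pattern was most like that of Bmp4 over the 8 libraries, among 10796 genes with a mean of at least 5, were Mtss1, Ogn, Rasl11b, Figf and Arl4d. Their log2(value + 1) values, each centred on its own mean, differed from those of Bmp4 by a root mean square of 0.39, 0.39, 0.42, 0.42 and 0.47. Ogn, which encodes osteoglycin, was 7.41 and 13.7 TMM-normalised CPM in static and 4.78 and 4.56 in stretched WT MCs, and 2.31 and 6.68 in static and 0.485 and 3.06 in stretched CAV1-/- MCs. Figf, which encodes VEGF-D, differed from the Bmp4 pattern in static CAV1-/- mouse 2, where it was 47.1 and highest of its 8 values.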

How the data were processed

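MCs of WT and CAV1-/- mice were measured by poly A RNA-seq with 61-base single reads. Per the labels and the study's methods, the authors trimmed reads with cutadapt, obtained estimates per gene from RSEM on the GRCm38 transcriptome and applied TMM normalization in edgeR. The deposited signal is TMM-normalized CPM for 13687 genes. All values (100.0%) were whole multiples of the value of 1 read, within 0.01 reads, so reads could be recovered, and 3 reads correspond to 0.146 to 0.308 depending on the library. Such a floor of 3 reads covers counting error only, while the SDs and SEs given here measure spread between mice or cultures.

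Genes that reached 1 in 2 or more libraries (13665, 22 removed) were compared on log2(value + 1) by limma 3.58.1 (R 4.3.3), with eBayes and an intensity trend, 1 mean per group over all 8 libraries and Benjamini-Hochberg adjustment over all genes. Fold changes on this scale understate those of low genes. Calls were made at an adjusted p under 0.05 and counted also at an unadjusted p of at most 0.05. A static and a stretched culture share a mouse, and deviations of such cultures from the group means correlated across genes (r = 0.703 in WT, 0.850 in CAV1-/-), so the fit with the animal as a block is given where it changes a call. P-values measure the spread between these cultures. Alternatives were pseudocounts of 0.1 and 5, no filter, median-of-ratios rescaling, a replicate block, edgeR 4.0.16 (quasi-likelihood) and DESeq2 1.42.0 on recovered reads, and leaving out each culture or mouse. Limma and edgeR were also run on simulated counts with large changes in static CAV1-/- cultures only and no effect shared by the cultures of a mouse. That run did not cover the stretch comparisons, the animal block or changes as small as those of the members.

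Members and lists were chosen with earlier results of these data known. Named are all members, Cav1, pathway genes past the threshold or among the 3 largest rises and 3 largest falls without overlap in a comparison, and the 5 genes nearest to Bmp4; 1 pathway gene is not reported here. Positions are from GENCODE M21 (GRCm38, 13604 identifiers matched), and exon length is the union of a gene's exons. Promoters are from RefSeq and were printed where their start lay within 2 bases of the GENCODE start. Id1 had no entry.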

Additional observations from a re-analysis of the deposited data

How the results depend on the processing

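All 8 libraries rest on 2 mice per genotype, and the fit had 4 residual degrees of freedom (2 with the animal as a block). The mean stretch change of every member kept its direction under all 19 alternatives. Leaving out a whole mouse could not reverse it, because each member changed in the same direction in every mouse, which for Bmp4 was the rule of choice. Counts at an adjusted p under 0.05 moved most. With the replicate block, which for stretch pairs cultures of 1 mouse and for genotype pairs different mice that share only a number (r = 0.522 static, 0.484 stretched), limma called 246 genes for genotype in static culture against 10 without it, 110 against 8 on stretch, 201 against 0 for the mean stretch effect and 1 against 0 for stretch in CAV1-/- MCs. Members called with this block numbered 1 for genotype in static culture (Bmp6), 1 on stretch (Bmp6) and, of the 8 members other than Bmp4, 2 for the mean stretch effect (Bmp6 and Id3). The replicate block changed no other call of a member, where Bmp4 on stretch was not tested. DESeq2 called 318 and 241 genes for genotype (static and stretched), 3 and 7 for stretch (WT and CAV1-/-) and 36 for the mean stretch effect, with 3 members in static culture (Bmp6, Bmpr1a and Smad6) and 2 on stretch (Bmp6 and Bmpr1a). The quasi-likelihood test of edgeR called 2 genes for genotype in static culture. Leaving out cultures or mice gave 0 to 8 genes in static and 0 to 7 in stretched genotype comparisons. The cause of these differences was not tested.

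Interaction terms changed sign for Bmp4 by edgeR (-0.015) and DESeq2 (-0.017), and for Bmp6 with a pseudocount of 0.1 (-0.026), by edgeR (-0.021) and by DESeq2 (-0.023). On leaving out cultures or mice they ranged from -0.45 to 0.92 for Bmp4, -0.25 to 0.39 for Bmp6, -0.090 to 0.18 for Bmpr1a, -1.17 to 0.36 for Grem1, -0.62 to 0.29 for Id1, -1.16 to 0.28 for Id2 and -0.38 to 0.16 for Id3. Leaving out a whole mouse turned the interaction term of Bmp4 (-0.13) and Bmpr1a (-0.042) without CAV1-/- mouse 1, of Bmp6 (-0.011) without CAV1-/- mouse 2, and of Bmp6 (-0.11), Id1 (0.076) and Id3 (0.025) without WT mouse 1. Genotype differences that changed sign on leaving out cultures or mice ranged in static culture from -0.027 to 0.30 for Bmpr2, -0.16 to 1.37 for Grem1 and -0.23 to 1.12 for Id2, and on stretch from -0.32 to 0.71 for Grem1 and -0.72 to 0.73 for Id2 (-0.58 without WT mouse 2). Stretch changes that did so ranged in WT MCs from -0.87 to 0.042 for Id1 and -0.85 to 0.33 for Id2, and in CAV1-/- MCs from -0.49 to 1.04 for Grem1 and -1.42 to 0.022 for Id2.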

Other observations

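Ratios of deposited values within a library, which do not divide out gene length and are read only between libraries, showed how the members moved against each other. The ratio of Bmpr2 to Bmpr1a was 0.674 to 0.817 in the 4 WT libraries and 1.13 to 1.49 in the 4 CAV1-/- libraries, without overlap. The ratio of Grem1 to Bmp4, of an antagonist to a ligand it binds, was 5.27 and 3.11 in static WT MCs and 24.8 and 18.5 after stretch. In CAV1-/- MCs it was 52.6 and 6.45 in static culture and 127.5 and 35.8 after stretch, so it was higher on stretch in each mouse, a direction in which the choice of Bmp4 takes part. The ratio of Id1 to Id3 stayed between 0.330 and 0.582. The ratio of Id2 to Id3 was 0.512 and 0.528 in the static and stretched culture of CAV1-/- mouse 1, whose leukocyte markers were high, and 0.133 to 0.249 in the other 6 libraries. The part of those cells in the Id2 level was not tested.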
